A study of Mus musculus with 4 samples.

Results

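Granzymes, perforin and the partners that lymphocytes use to kill were followed in mouse prostate tumours: Gzma, Gzmb, Gzmc, Gzmk, Prf1, Nkg7, Ifng and Fasl. These 8 genes were taken by symbol from the 32285 genes of the deposited count tables, and all 8 were found in each of the 4 libraries. Single cells were profiled from tumours labelled TKO (Nkx3.1CreERT2 with floxed alleles that include Smad4 and Pygo2, 2 libraries) and from tumours labelled DKO (Nkx3.1CreERT2 with the same floxed alleles except Pygo2, 2 libraries). Both genotypes therefore carry the tamoxifen-inducible Cre, which is driven by a prostate epithelial gene, and lymphocytes are not the cells in which it is meant to act. The series design gives 10 or 17 weeks after tamoxifen, and no label ties a library to either time. No age of the mice is given. The labels do not tie the libraries to different animals, and a p-value here sets the genotypes against the library-to-library spread, part or all of which could be technical.

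Cytotoxic lymphocytes store granzymes, a family of serine proteases, in acidic granules together with perforin. On contact with a target cell the granule is released, perforin (Prf1) opens pores in the target's membrane, and the granzymes enter its cytosol, where granzyme B cleaves caspases and their substrates. Nkg7 encodes a membrane protein of these granules that aids their release. The same cells carry a granule-independent route, Fas ligand (Fasl), which engages the death receptor Fas, and secrete interferon gamma (Ifng), which raises antigen presentation in surrounding cells. Granzyme A (Gzma) is a tryptase, granzyme C (Gzmc) belongs to a cluster expanded in rodents, and granzyme K (Gzmk) is a tryptase often found in CD8 T cells with an intermediate or exhausted state.

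The 4 promoter windows below are shown because Gzmk and Gzma are neighbours led by different classes, Gzmk by CD8 T cells in each library and Gzma by NK cells in 3 of 4 libraries, and because Gzmb and Prf1 are the canonical protease and pore pair. Each is the 250 bases before the RefSeq start (GRCm38.p6), written 5′ to 3′ on the gene's strand, and capitals mark matches, on either strand, to TCACACC (a T-box half-site), TGTGGT (Runx) or TGANTCA (AP-1).
Gzmk, chr13:113180966-113181215, minus strand: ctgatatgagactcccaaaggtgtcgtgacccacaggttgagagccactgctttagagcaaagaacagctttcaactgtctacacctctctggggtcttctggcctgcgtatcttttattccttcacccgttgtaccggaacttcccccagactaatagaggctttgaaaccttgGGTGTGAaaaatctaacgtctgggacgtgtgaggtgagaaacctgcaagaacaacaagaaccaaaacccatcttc
Gzma, chr13:113100982-113101231, minus strand: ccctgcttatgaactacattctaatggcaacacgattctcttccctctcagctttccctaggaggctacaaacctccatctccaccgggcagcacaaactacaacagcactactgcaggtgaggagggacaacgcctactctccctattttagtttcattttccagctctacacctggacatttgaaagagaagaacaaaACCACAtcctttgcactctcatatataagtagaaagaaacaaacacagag
Gzmb, chr14:56262335-56262584, minus strand: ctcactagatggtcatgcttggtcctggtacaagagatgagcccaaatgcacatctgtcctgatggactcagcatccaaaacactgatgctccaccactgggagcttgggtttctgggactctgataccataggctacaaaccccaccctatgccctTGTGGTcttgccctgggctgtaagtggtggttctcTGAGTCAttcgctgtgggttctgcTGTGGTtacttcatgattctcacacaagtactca
Prf1, chr10:61297586-61297835, plus strand: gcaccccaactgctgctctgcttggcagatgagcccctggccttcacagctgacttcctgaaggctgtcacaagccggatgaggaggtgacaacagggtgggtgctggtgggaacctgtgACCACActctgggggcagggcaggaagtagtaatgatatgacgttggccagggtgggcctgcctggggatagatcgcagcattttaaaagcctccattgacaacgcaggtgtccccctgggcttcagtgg
The capitals are a T-box match in Gzmk, a Runx match in Gzma and in Prf1, and in Gzmb an AP-1 match between a pair of Runx matches, and none overlaps another. RefSeq windows were found for all 8 genes. TCACACC was in 2 of them (Gzmk and Nkg7), against 3.31% of 27025 promoters of this length, and TGTGGT in 5 of them (Gzma, Gzmb, Gzmc, Prf1 and Nkg7), against 14.2%. TGANTCA was in 1 (Gzmb), against 6.87%, and TATAAA in 1 (Ifng), against 13.0%. A match describes the letters and is not evidence that a factor binds there. The bases just after the RefSeq start were found in GENCODE transcripts of Gzma but not of Gzmk, Gzmb or Prf1. The place of those windows relative to the start is therefore less certain.

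In the GENCODE annotation of GRCm38 (mm10), Gzma (ENSMUSG00000023132, chromosome 13, 113093825 to 113100981, minus strand) lies 70626 bases from Gzmk (ENSMUSG00000042385, 113171608 to 113225908, minus strand), whose annotated gene runs past the RefSeq start used above. Gzmb (ENSMUSG00000015437, chromosome 14, 56258838 to 56262260, minus strand) lies 24181 bases from Gzmc (ENSMUSG00000079186, 56231441 to 56234656, minus strand). Prf1 (ENSMUSG00000037202, 61297833 to 61304680, plus strand) and Ifng (ENSMUSG00000055170, 118441046 to 118445892, plus strand) are on chromosome 10, Nkg7 (ENSMUSG00000004612, 43437073 to 43438249, plus strand) is on chromosome 7 and Fasl (ENSMUSG00000000817, 161780689 to 161788495, minus strand) is on chromosome 1. Gzmc shares 4.14% of its 50-base stretches with Gzmd, Gzme or Gzmg, and Ifng shares 13.5% with the overlapping locus Gm49751, so their counts are less certain. The other 6 genes share none with another gene.

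The files held 3508 barcodes, none shared between libraries, and 3381 cells were kept, 797 to 1208 in the TKO libraries with 10505183 to 18360201 UMIs (unique molecular identifiers, the counts of captured transcripts) and 617 to 759 in the DKO libraries with 9167770 to 14660012 UMIs. T cells needed at least 2 CD3 UMIs (Cd3d, Cd3e and Cd3g). CD8 T cells also needed a Cd8a or Cd8b1 UMI and more of these than of Cd4, and the remainder are called other T cells. NK cells needed at least 2 UMIs of Ncr1, Klrb1c and Klre1 and at most 1 CD3 UMI, a rule that does not separate type 1 innate lymphoid cells. T cells with UMIs of these NK markers stayed in the T cell classes. No gene of the 8 took part in these rules. They gave 140 and 72 CD8 T cells in TKO replicates 1 and 2 and 21 and 56 in DKO replicates 1 and 2. They gave 183 and 197 other T cells in TKO against 83 and 140 in DKO, and 43 and 40 NK cells in TKO against 5 and 33 in DKO. The 5 NK cells of DKO replicate 1 are too few to stand for a library. For the 8 genes, the NK results that passed, or that turned sign, are therefore also given without that library. Those of other genes are given only with it. T cell genes not used by the rule (Trac, Trbc2, Cd2 and Lck) summed to 1547 to 2048 CPM (a count scaled to the same UMI total in every library and class) in CD8 T cells, 1150 to 1358 CPM in other T cells and 368 to 473 CPM in NK cells. NK genes not used by the rule (Eomes, Klrd1, Klra7 and Tyrobp) summed to 1957 to 2331 CPM in NK cells, against 299 to 817 CPM in CD8 T cells. In neutrophils the same genes summed to 2134 to 2920 CPM, so the sum sets NK cells apart from CD8 T cells but not from neutrophils. Pygo2 gave 10.8 and 7.17 CPM in TKO cells with at least 2 Epcam UMIs and 5.69 and 7.25 CPM in such DKO cells. These levels overlapped. Which exons were floxed is not stated, so a 3-prime count checks neither the deletion nor the labels.

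Against CD8 T cells, NK cells were higher in Prf1 and Gzmc and lower in Gzmk. Against other T cells, CD8 T cells were higher in Gzmk, Nkg7, Prf1 and Fasl. Gzma, Gzmb and Ifng passed neither contrast, although with no filter on low counts Gzma passed both (2.52 for NK minus CD8 T, edgeR adjusted p = 9.01e-50, and 0.70 for CD8 T minus other T, adjusted p = 0.000502) and Gzmb passed the second (1.16, adjusted p = 3.09e-10). In edgeR's quasi-likelihood test with the library as a block, 2 of the 8 genes were higher and 1 lower in NK than in CD8 T cells, where 4.41% and 5.19% of 9480 genes tested were, 9.6% in either direction. In CD8 T against other T cells 4 of the 8 were higher and 0 lower, where 3.5% and 6.05% were, 9.56% in either direction. DESeq2 called the same 3 and the same 4 genes. Without DKO replicate 1, NK minus CD8 T was 3.11 for Prf1 (edgeR adjusted p = 7.18e-07), 4.205 for Gzmc (0.0123) and -5.72 for Gzmk (0.000458).

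**Figure D1:**
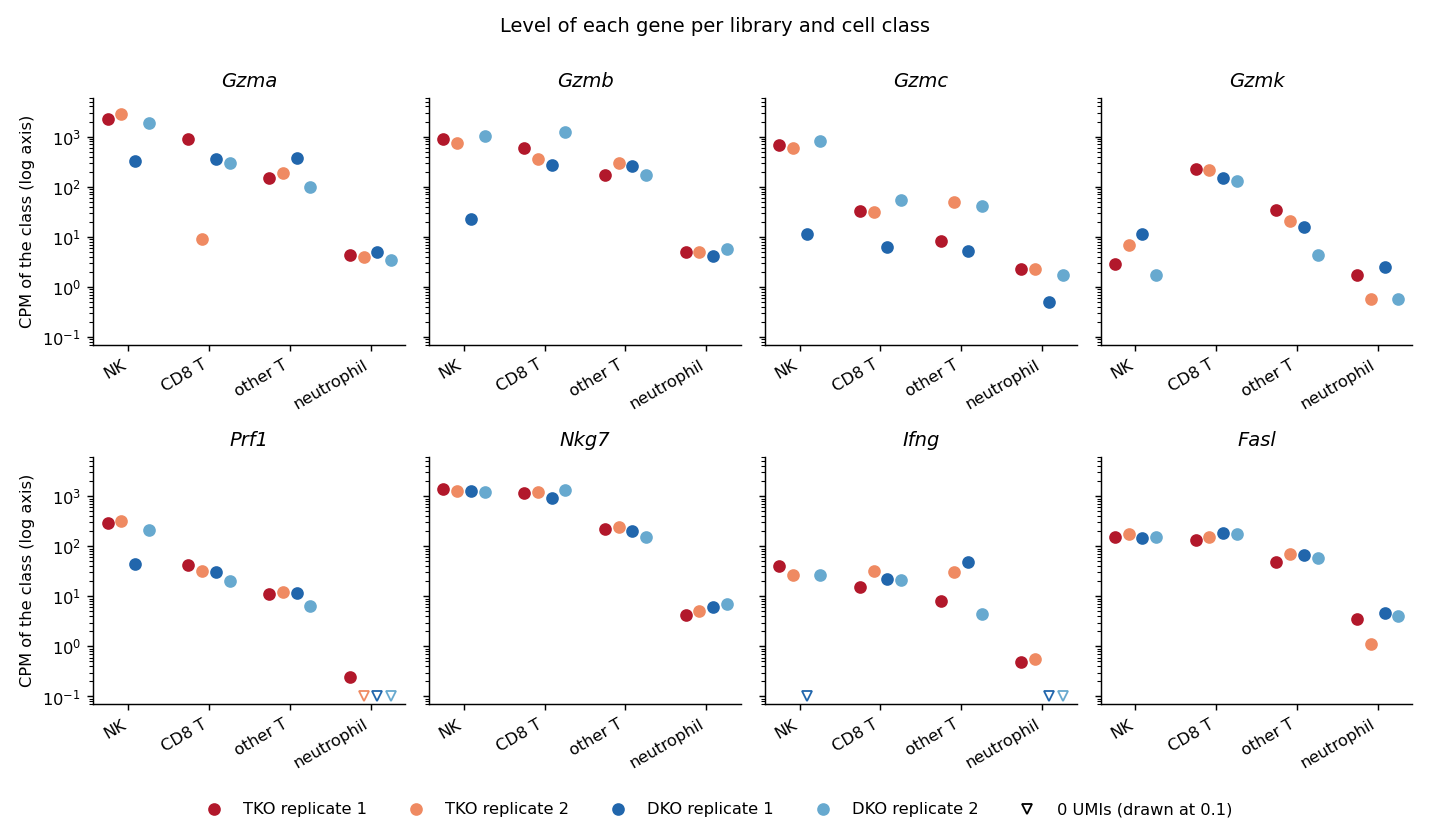
CPM of each gene (log axis) in NK, CD8 T and other T cells and in neutrophils, with 1 point per library and open triangles for 0 UMIs. Prf1 stepped down from NK to CD8 T to other T cells with no overlap, though the NK value of DKO replicate 1 rests on 4 Prf1 UMIs. Gzmk was highest in CD8 T cells, and DKO replicate 1 (5 NK cells) sat low in NK cells for Gzma, Gzmb, Gzmc and Prf1.

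Prf1, the pore former, was at 296 and 315 CPM in the NK cells of TKO replicates 1 and 2 and at 44.6 and 209 CPM in those of DKO replicates 1 and 2. In CD8 T cells it was at 42.7 and 32.5 CPM in TKO and 31.3 and 20.3 CPM in DKO, and in other T cells at 11.3 and 12.4 CPM in TKO and 11.6 and 6.29 CPM in DKO. The 3 classes did not overlap, and the order NK, CD8 T, other T held in each of the 4 libraries. The NK value of DKO replicate 1 rests on 4 Prf1 UMIs in 5 cells. Without its top cell, which held 3 of them, it was 11.1 CPM, below the CD8 T value of every library. NK cells exceeded CD8 T cells by 2.92 ± 0.28 on the log2 scale (SE, 4 libraries, edgeR adjusted p = 2.6e-05), and CD8 T cells exceeded other T cells by 1.62 ± 0.33 (adjusted p = 0.00633). The second difference missed the threshold without TKO replicate 1 (1.46, edgeR adjusted p = 0.113) and when cells with UMIs of other lineages were not excluded (1.70, adjusted p = 0.0976). A Prf1 UMI was seen in 81.4% (exact 95% binomial interval 66.6 to 91.6) and 82.5% (67.2 to 92.7) of TKO NK cells and in 2 of 5 and 78.8% (61.1 to 91.0) of DKO NK cells. Neutrophils, which should lack it, had a Prf1 UMI in 0.228% of cells in TKO replicate 1 and in none of 224 cells in TKO replicate 2 or of 230 and 176 cells in the DKO libraries, which by a limit of 3 counts, not the binomial interval, allows shares of up to 1.34%, 1.30% and 1.70%.

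Nkg7, the granule membrane protein, was higher in CD8 T than in other T cells, and NK against CD8 T cells did not pass. Its level was 1389 and 1287 CPM in TKO NK cells and 1248 and 1230 CPM in DKO NK cells. CD8 T cells held 1183 and 1222 CPM in TKO and 940 and 1312 CPM in DKO, and other T cells 223 and 246 CPM in TKO and 201 and 153 CPM in DKO. NK and CD8 T levels overlapped and differed by 0.15 ± 0.15 on the log2 scale (edgeR adjusted p = 0.65), whereas CD8 T exceeded other T cells by 2.52 ± 0.16 (adjusted p = 1.34e-07). It was detected in 76.2 to 92.9% of CD8 T cells, all 5 NK cells of DKO replicate 1, 87.5 to 97.7% of the NK cells of the other libraries and 22.4 to 29.9% of other T cells, against 3.88 to 6.82% of neutrophils.

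Gzmk, the granzyme K tryptase, was the member that marked CD8 T cells. It was at 227 and 215 CPM in TKO CD8 T cells and at 147 and 128 CPM in DKO CD8 T cells. Other T cells held 34.0 and 21.0 CPM in TKO and 15.8 and 4.35 CPM in DKO, and NK cells 2.79 and 6.74 CPM in TKO and 11.1 and 1.76 CPM in DKO. The NK values rest on 2 and 4 UMIs in TKO and 1 and 1 in DKO. Every CD8 T value lay above every value of the other classes. CD8 T cells exceeded other T cells by 3.37 ± 0.27 on the log2 scale (SE, 4 libraries, edgeR adjusted p = 5.08e-06), and NK minus CD8 T was -5.55 ± 0.45 (adjusted p = 3.75e-06). The neutrophil background of Gzmk was 1.74 and 0.563 CPM in TKO and 2.53 and 0.574 CPM in DKO, on 7 and 1 UMIs in TKO and 5 and 1 in DKO. CD8 T cells held 81.3% and 80.1% of all Gzmk UMIs of the TKO libraries and 62.7% and 82.4% of those of the DKO libraries.

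Gzma, its neighbour on chromosome 13, was led by NK cells in 3 of the 4 libraries. NK cells held 2225 and 2829 CPM in TKO and 323 and 1897 CPM in DKO, and other T cells 147 and 189 CPM in TKO and 367 and 99.2 CPM in DKO. CD8 T cells held 890 and 9.03 CPM in TKO and 351 and 292 CPM in DKO. In TKO replicate 1 a single CD8 T cell held 2060 of the 2186 Gzma UMIs of its class. That cell carried 170 CD3 UMIs, 37 CD8 UMIs and no UMI of the 3 NK markers, and 98.4% of its hashtag UMIs were its own library's. It also held the most Gzmb (534 UMIs) and the most Gzmk (49 UMIs) of the CD8 T cells of that library, with 35506 UMIs in all, more than 90.7% of them. Some other top Gzma cells carried NK marker UMIs. In DKO replicate 1 the top CD8 T cell (58 of 112 Gzma UMIs) had 9, with 6 CD3 and 8 CD8 UMIs. The top CD8 T cells of TKO replicate 2 and DKO replicate 2 had none. In other T cells the top Gzma cells had 10 and 7 in TKO and 11 and 1 in DKO. The part of such cells in the T cell values was not tested. Without the top cell of each library, Gzma in CD8 T cells was at 51.3 and 7.22 CPM in TKO and 169 and 91.4 CPM in DKO. NK minus CD8 T was 2.57 ± 1.24 on the log2 scale, which did not pass (edgeR adjusted p = 0.315). CD8 T minus other T was 0.73 ± 1.22, which did not pass either (adjusted p = 0.83) and was -0.16 without the top cells.

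Gzmb, the caspase-cleaving protease, was at 884 and 743 CPM in TKO NK cells and 22.3 and 1050 CPM in DKO NK cells. CD8 T cells held 601 and 358 CPM in TKO and 272 and 1237 CPM in DKO, and other T cells 171 and 294 CPM in TKO and 259 and 168 CPM in DKO. Gzmb CPM was higher in CD8 T than in other T cells in 4 of 4 libraries, but the ranges overlapped and the difference of 1.19 ± 0.74 on the log2 scale did not pass (edgeR adjusted p = 0.451). NK and CD8 T cells differed by 0.21 ± 0.71 (adjusted p = 0.94). In CD8 T cells the single cell with the most Gzmb held 36.2% and 66.0% of the UMIs in TKO and 37.9% and 21.7% in DKO. NK cells held most Gzmc UMIs in 3 of the 4 libraries. Gzmc in NK cells was at 684 and 583 CPM in TKO and 11.1 and 824 CPM in DKO, against 32.2 and 30.7 CPM in TKO CD8 T cells and 6.26 and 53.8 CPM in DKO CD8 T cells. NK exceeded CD8 T cells in 4 of 4 libraries, by 4.13 ± 0.53 on the log2 scale (edgeR adjusted p = 0.00307). In DKO replicate 1 this order rests on 1 Gzmc UMI in 5 NK cells against 2 in 21 CD8 T cells. A Gzmc UMI was seen in 8 of 43 and 8 of 40 TKO NK cells and in 1 of 5 and 7 of 33 DKO NK cells, and the top cell held 75.9% and 53.5% of the NK UMIs in TKO and 45.0% in DKO replicate 2.

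Fasl, the death ligand, was at 156 and 179 CPM in TKO NK cells and 145 and 151 CPM in DKO NK cells. CD8 T cells held 136 and 154 CPM in TKO and 188 and 173 CPM in DKO, and other T cells 49.4 and 70.1 CPM in TKO and 66.3 and 57.1 CPM in DKO. NK and CD8 T cells differed by 0.02 ± 0.15 on the log2 scale (edgeR adjusted p = 0.981), and CD8 T exceeded other T cells by 1.43 ± 0.14 (adjusted p = 1.44e-05). Ifng, the secreted cytokine, was sparse. It gave 38 and 36 UMIs in TKO CD8 T cells and 7 and 21 in DKO CD8 T cells, and 29 and 16 UMIs in TKO NK cells and 0 and 15 in DKO NK cells. Its class differences did not pass (adjusted p = 0.762 for NK against CD8 T cells and 0.836 for CD8 T against other T cells). In the other T cells of DKO replicate 1, the top cell held 36 of 47 Ifng UMIs and had 18 NK marker UMIs and 2 CD3 UMIs. An Ifng UMI was seen in 0 of the 5 NK cells of DKO replicate 1, which by a limit of 3 counts allows a share of cells with a UMI of up to 60.0%.

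**Figure D2:**
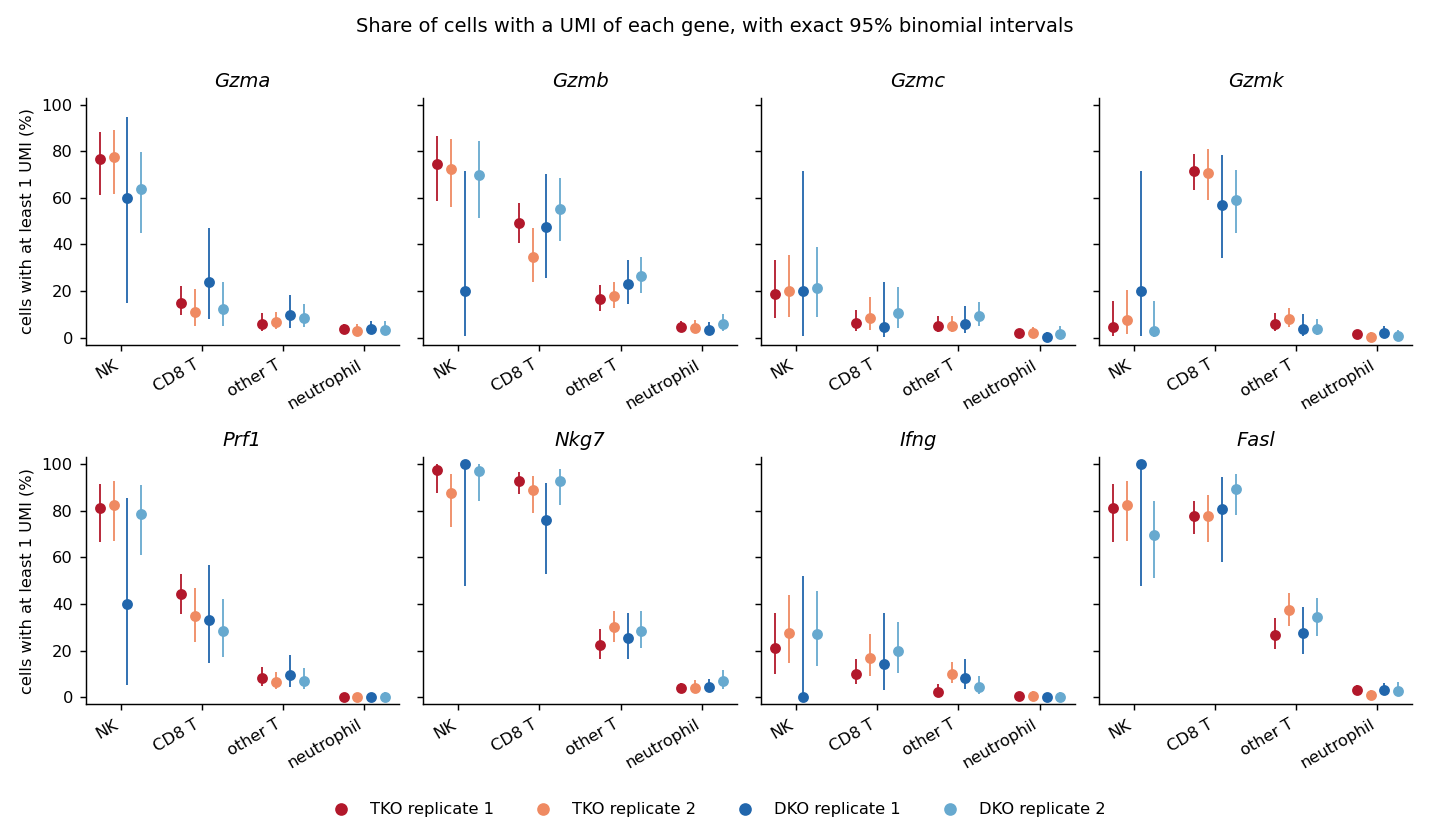
Share of cells with at least 1 UMI of each gene (percent) per library and class, with exact 95% binomial intervals that cover counting error only. Nkg7 and Fasl were detected in most NK and CD8 T cells, Gzmk in 57.1 to 71.4% of CD8 T cells, and neutrophil shares stayed at or under 6.82%.

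In CD8 T cells, the comparison of TKO with DKO asks whether floxed Pygo2 in the tumour goes with a change in the killing genes of the T cells around it. Of the 8 genes edgeR called 0, where 0.0% of 8398 genes tested were called, and DESeq2 called 0 of the 8. At an unadjusted p under 0.05 edgeR passed 1 of the 8 (Gzmk), where 4.57% of all genes did. The median change of the 8 was 0.07 on the log2 scale, against 0.01 over all genes tested. Both TKO libraries lay above both DKO libraries for Gzmk and Prf1, as for 20.1% of genes, and below both for Fasl, as for 13.8%.

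**Figure D3:**
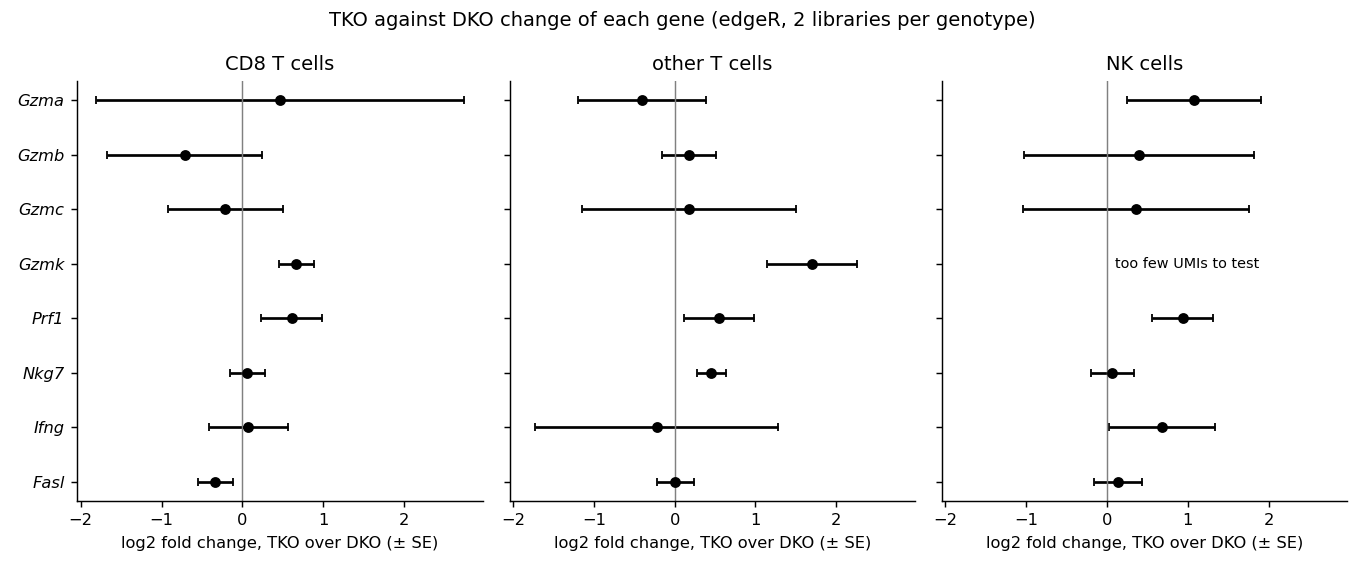
Log2 fold change of each gene, TKO over DKO, with its standard error (bars), in CD8 T, other T and NK cells. No change passed the adjusted threshold, Gzmk lay above 0 in CD8 T and other T cells, and the widest bar is Gzma in CD8 T cells (0.47 ± 2.28).

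Gzmk differed by 0.67 ± 0.21 on the log2 scale between TKO and DKO CD8 T cells (SE, 2 libraries per genotype, edgeR unadjusted p = 0.0118, adjusted p = 0.999). The change kept its sign over all alternatives, from 0.41 with at least 2 CD8 UMIs required to 0.89 with no exclusion by other lineages, with adjusted p from 0.354 to 1. Gzmk was seen in 71.4% (63.2 to 78.7) and 70.8% (58.9 to 81.0) of TKO CD8 T cells and in 57.1% (34.0 to 78.2) and 58.9% (45.0 to 71.9) of DKO CD8 T cells. The shares did not overlap and differed by 13.1 percentage points, with an exact two-sided permutation p of 0.333, the smallest that 2 against 2 libraries allow. The shares of Prf1 and Fasl in these cells reached the same p by the same test. Shares were not computed for genes outside the 8, so no background stands beside this separation. With each cell thinned to 2000 UMIs the Gzmk shares were 38.6% and 34.7% in TKO and 19.0% and 16.1% in DKO. With at least 2 CD8 UMIs required, the mean Gzmk share was 76.6% in TKO and 69.3% in DKO, a smaller difference of 7.27 percentage points. Prf1 differed by 0.61 ± 0.38 (edgeR adjusted p = 0.999), and by 0.29 without DKO replicate 2 and 0.39 without TKO replicate 1, with a UMI in 44.3% and 34.7% of TKO and 33.3% and 28.6% of DKO CD8 T cells. Thinned in the same way, the Prf1 shares were 10.0% and 6.94% in TKO and 9.52% and 3.57% in DKO, which overlapped. Their difference fell from 8.55 to 1.92 percentage points. Fasl differed by -0.33 ± 0.21 (adjusted p = 0.999), with a UMI in 77.9% and 77.8% of TKO and 81.0% and 89.3% of DKO CD8 T cells.

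The change of Gzma turned sign when the top cell of each library, among them the single cell described above, was left out. In CD8 T cells it was 0.47 ± 2.28 on the log2 scale (edgeR adjusted p = 0.999). Without the top cell of each library it was -2.01 (adjusted p = 0.999), without TKO replicate 1 it was -5.13 (adjusted p = 1.15e-16) and without TKO replicate 2 it was 1.44 (adjusted p = 0.0271). The fits with a single TKO library assume that it varies like the DKO libraries. Gzmb differed by -0.71 ± 0.96, Gzmc by -0.21 ± 0.71, Nkg7 by 0.06 ± 0.22 and Ifng by 0.08 ± 0.49, and none passed. Genes of macrophages and monocytes (Lyz2, Csf1r, C1qa, C1qb and Ccr2) summed to 1109 and 63.2 CPM in the TKO CD8 T sums and 586 and 190 CPM in the DKO sums, with C1qa at 0 in DKO replicate 1. Neutrophil genes summed to 108 and 99.3 CPM in TKO and 1015 and 96.4 CPM in DKO, and cycling genes (Mki67, Top2a and Stmn1) to 441 and 765 CPM in TKO and 37.6 and 439 CPM in DKO. Their part in these changes was not tested.

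In other T cells 0 of the 8 genes were called by edgeR, where 0.0686% of 10205 genes tested were, and DESeq2 called 0 of the 8. At an unadjusted p under 0.05 edgeR passed 2 of the 8 (Gzmk and Nkg7), where 6.1% of all genes did, and for the same pair both TKO libraries lay above both DKO libraries, as for 14.6% of genes. Gzmk gave 84 and 49 UMIs in TKO and 15 and 9 in DKO, a change of 1.70 ± 0.56 on the log2 scale (SE, 2 libraries per genotype, edgeR adjusted p = 0.63). It passed with no filter on low counts (1.73, adjusted p = 0.00133) and ran from 0.82 without DKO replicate 2 to 2.71 without DKO replicate 1, with adjusted p from 0.00133 to 1 over its alternatives. Nkg7 differed by 0.46 ± 0.18 (adjusted p = 0.727). The share of other T cells with a Gzmb UMI was 16.4% and 17.8% in TKO, against 22.9% and 26.4% in DKO, a difference of -7.58 percentage points (exact two-sided permutation p = 0.333, the smallest possible). The shares of Gzma, Gzmc and Gzmk in these cells reached the same p, and no share was computed for genes outside the 8. The Gzmb level in these cells, 171 and 294 CPM in TKO and 259 and 168 CPM in DKO, overlapped and had a change of the other sign to its share (0.18 ± 0.33 on the log2 scale, edgeR adjusted p = 0.998). Mast cell genes (Cpa3, Mcpt4 and Tpsb2) were at 0 in both TKO sums and summed to 277 and 0.484 CPM in the DKO sums of this class. The DKO replicate 1 cell with the most Gzmb (93 UMIs) had 2 CD3 UMIs and no Nkg7 UMI, and the part of such cells in the Gzmb values was not tested.

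The change in CD8 T cells minus the change in other T cells was tested as an interaction. It was -1.09 ± 0.50 on the log2 scale for Gzmk (edgeR unadjusted p = 0.0583, adjusted p = 0.886), and ran from -1.97 without DKO replicate 1 to -0.20 without DKO replicate 2. Of the 8 genes 0 passed, where 0.00985% of 10154 genes tested did. No gene of the 8 passed at an unadjusted p under 0.05 either, where 5.68% of all genes did, and DESeq2 called 0. Without TKO replicate 2 the interaction of Gzma passed (1.75, edgeR adjusted p = 0.0101), against -0.77 with it.

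In NK cells the planned minimum of 10 cells per library was not met, and the fit below includes the 5 cells of DKO replicate 1. Of the 7 genes with enough UMIs (Gzmk had too few), edgeR called 0, where 0.405% of 6666 genes tested were called, and DESeq2 called 0. Prf1 passed an unadjusted p under 0.05, where 5.25% of all genes did, at 0.93 ± 0.37 on the log2 scale (edgeR adjusted p = 0.844). Both TKO libraries lay above both DKO libraries for Prf1, Gzma, Nkg7, Ifng and Fasl, that is 5 of 7 genes, as for 21.3% of genes. Without DKO replicate 1, the Prf1 change was 0.55 and that of Gzma 0.42, against 1.08 ± 0.83 with it. Gzmb and Gzmc turned to -0.36 and -0.37 without it, against 0.40 ± 1.43 and 0.36 ± 1.40 with it. Without DKO replicate 2, which leaves the 5 cells as the whole DKO group, Gzma (2.87, edgeR adjusted p = 0.0162), Gzmb (5.08, 0.00393) and Gzmc (5.71, 0.00393) were called, with the spread taken from the TKO pair alone and assumed for the lone DKO library. A Gzma UMI was seen in 76.7% (61.4 to 88.2) and 77.5% (61.5 to 89.2) of TKO NK cells and in 3 of 5 and 63.6% (45.1 to 79.6) of DKO NK cells.

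With T and NK cells summed together, 0 of the 8 were called by edgeR, where 0.0263% of 11414 genes tested were, and 0 by DESeq2. At an unadjusted p under 0.05, where 5.11% of all genes passed, edgeR passed Gzmk (1.19 ± 0.26, adjusted p = 0.537), Gzma (0.67 ± 0.18, 0.679), Prf1 (0.94 ± 0.31, 0.872) and Nkg7 (0.44 ± 0.18, 0.967). For these 4 both TKO libraries lay above both DKO libraries, as for 16.3% of genes. With no filter on low counts Gzmk (adjusted p = 2.29e-07), Prf1 (0.00115) and Gzma (0.0014) passed, and without DKO replicate 2 Prf1 (1.74, adjusted p = 0.0354) and Gzmc (4.25, 0.0025) did, again with the spread of the TKO pair assumed for the lone DKO library. The summed cells differed in make-up: CD8 T cells were 38.3% and 23.3% of them in TKO and 19.3% and 24.5% in DKO, and NK cells 11.7% and 12.9% in TKO and 4.59% and 14.4% in DKO. In such a sum, more cells of a class and more RNA per cell cannot be told apart.

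Gzmk was seen in 57.1 to 71.4% of CD8 T cells and Gzmb in 34.7 to 55.4%, and their joint detection was not tested against these single shares. Both genes were seen in the same cell in 38.6% (30.5 to 47.2) and 27.8% (17.9 to 39.6) of TKO and 38.1% (18.1 to 61.6) and 32.1% (20.3 to 46.0) of DKO CD8 T cells. Gzmk without Gzmb was seen in 32.9% and 43.1% of TKO and 19.0% and 26.8% of DKO cells, and Gzmb without Gzmk in 10.7% and 6.94% of TKO and 9.52% and 23.2% of DKO cells. NK cells with a Gzmk UMI numbered 2 and 3 in TKO and 1 and 1 in DKO. Of Gzmb-positive NK cells 87.5% and 89.7% had a Prf1 UMI in TKO and 95.7% in DKO replicate 2 (and the only one of DKO replicate 1 had none), against 50.7% and 44.0% of Gzmb-positive CD8 T cells in TKO and 40.0% and 32.3% in DKO. The median cell held UMIs of 5 of the 8 genes in NK cells of 3 libraries and 4 in the 5 cells of DKO replicate 1, of 4 in CD8 T cells and of 1 in other T cells. These shares follow detection, which rises with depth, and median depths were 12241 to 15352.5 UMIs in CD8 T, 10397 to 11914.5 in other T and 12348 to 18468 in NK cells.

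**Figure D4:**
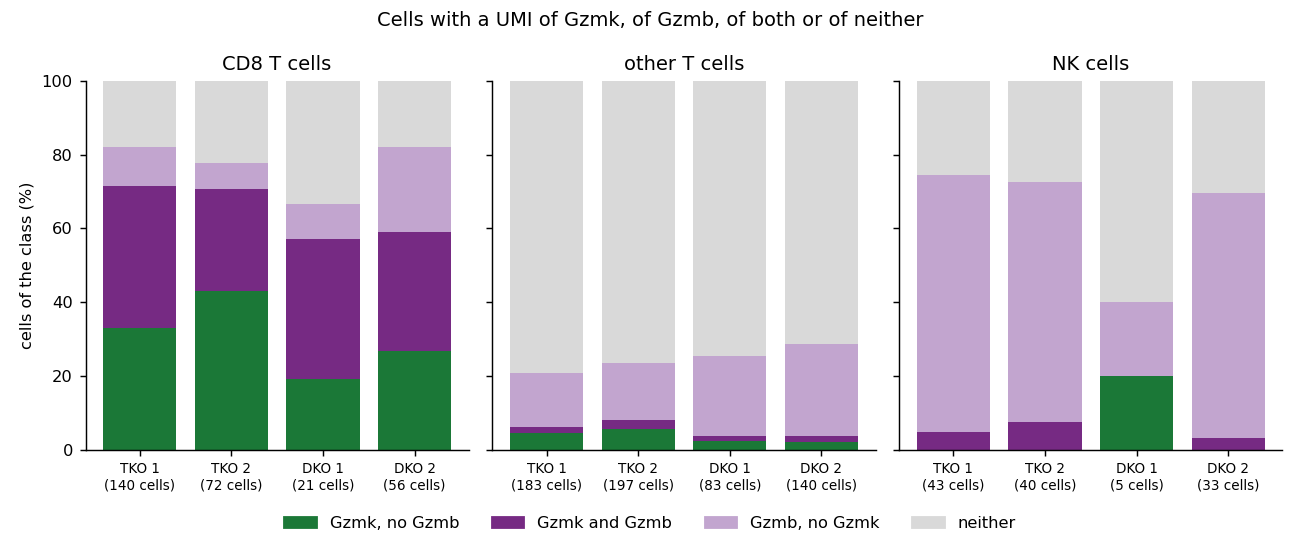
Percent of CD8 T, other T and NK cells per library with a UMI of Gzmk, of Gzmb, of both or of neither. Cells with both made up 27.8 to 38.6% of CD8 T cells, whereas Gzmb without Gzmk made up 65.0 to 69.8% of NK cells in the 3 libraries with at least 33 of them.

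Other T cells were split by marker UMIs into Foxp3 cells, gamma-delta cells (Trdc and Tcrg-C1), Cd4 cells and cells with none of these. Cd4 cells held 49 and 40 of the Gzmk UMIs of this class in TKO and 13 and 5 in DKO, with a UMI in 14.3% (5.43 to 28.5) and 18.3% (10.1 to 29.3) of TKO Cd4 cells and 16.7% (2.09 to 48.4) and 18.8% (4.05 to 45.6) of DKO Cd4 cells. Those shares overlapped between genotypes, and the Cd4 cells numbered 42 and 71 in TKO and 12 and 16 in DKO, and the part of their number in the Gzmk level of the whole class was not tested. Foxp3 cells, the regulatory T cells, had a single Gzmk UMI, in DKO replicate 2. They had a Gzmb UMI in 11.6% (3.89 to 25.1) and 14.3% (3.05 to 36.3) of 43 and 21 TKO cells and in 36.4% (17.2 to 59.3) and 31.4% (16.9 to 49.3) of 22 and 35 DKO cells, with 14 and 3 UMIs in TKO and 27 and 104 in DKO. The intervals of the libraries overlapped. In cells with none of these markers Gzmb reached 1125 and 1454 CPM in TKO and 1010 and 47.2 CPM in DKO, and Gzma 861 and 963 CPM in TKO and 482 and 27.0 CPM in DKO. These cells numbered 23 and 37 in TKO and 15 and 30 in DKO. Gzmb was seen in 5 and 13 of them in TKO and 6 and 6 in DKO. The top cell held 225 of 286 and 162 of 637 Gzmb UMIs in TKO and 93 of 174 and 13 of 21 in DKO. Gzma was seen in 3 and 4 cells in TKO and 4 and 5 in DKO. Its top cell held 151 of 219 and 255 of 422 UMIs in TKO and 72 of 83 and 6 of 12 in DKO.

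The 3 lymphocyte classes held most UMIs of each gene in each library, except Gzmc in DKO replicate 1, where cells outside them and the neutrophils held 77.5% of 40 UMIs. Cells outside the 3 classes and the neutrophils held 27.7% and 20.1% of the Gzmb UMIs in TKO and 26.2% and 3.76% in DKO. In 3 of the 4 libraries most of these lay in a handful of cells with at least 2 UMIs of the basophil and mast cell genes Mcpt8 and Cpa3, a rule chosen after the values were seen. These cells numbered 6 and 3 in TKO and 2 and 2 in DKO, with 891 and 346 Gzmb UMIs in TKO and 83 and 31 in DKO. That is 25.2% and 18.0% of all Gzmb UMIs of the TKO libraries and 17.8% and 1.37% of those of the DKO libraries. They had no UMI of Gzma, Gzmk or Ifng, and none of the connective tissue mast cell genes Mcpt4 and Tpsb2. They did hold 17 and 9 Gzmc UMIs in TKO and 25 and 1 in DKO. Nkg7 gave 6 and 1 UMIs in TKO and 6 and 0 in DKO. Prf1 gave 2 in TKO replicate 1 and Fasl 1 in DKO replicate 1. In each DKO library 1 of the 2 cells held all of these Gzmb UMIs. Mcpt8 gave 65 and 44 UMIs in TKO and 3 and 2 in DKO, and Cpa3 61 and 14 in TKO and 2 and 6 in DKO. In DKO replicate 1, cells outside the lymphocyte classes and the neutrophils also held 37.5% of the 40 Prf1 UMIs, 15 in all, 10 of them in 1 cell.

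**Figure D5:**
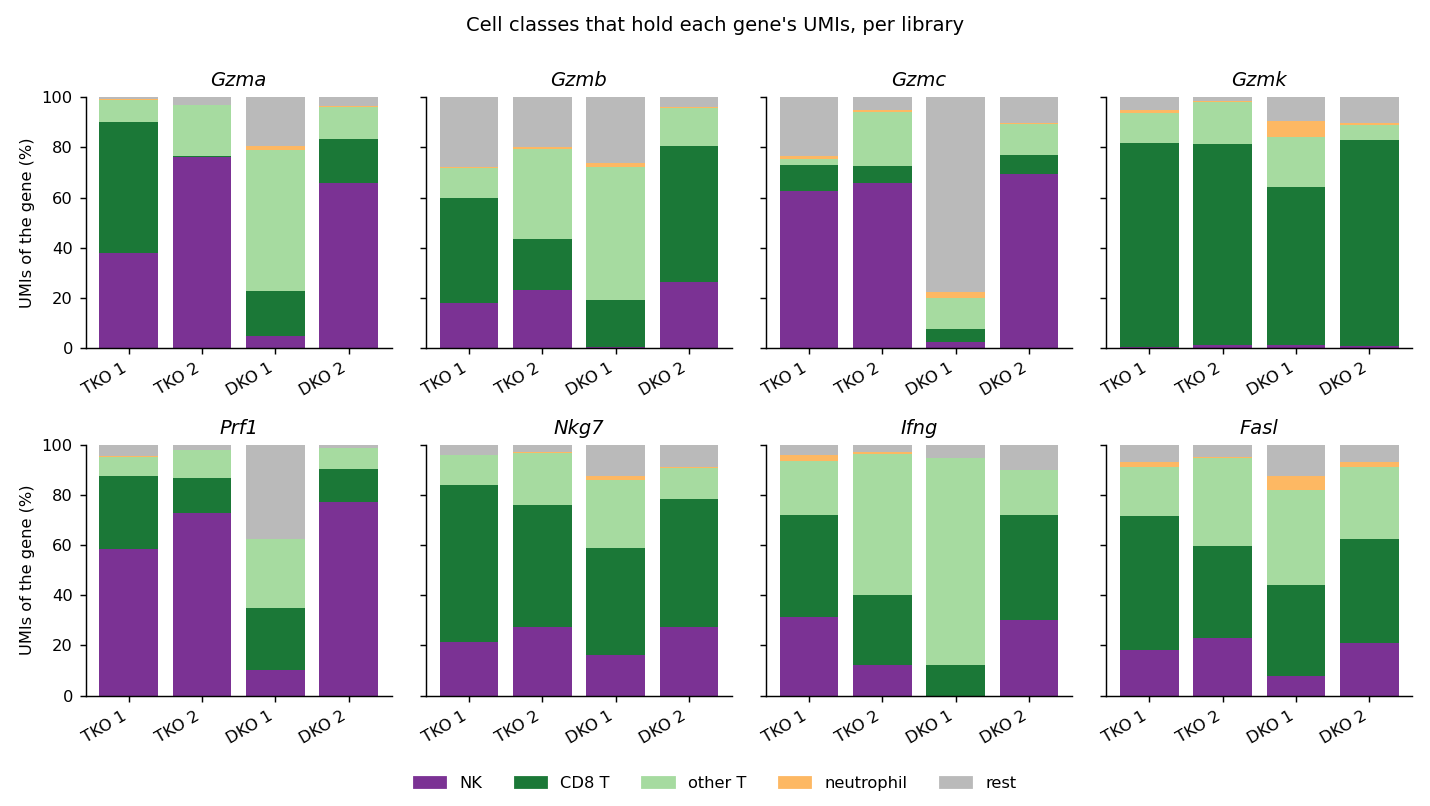
Percent of each gene's UMIs held by NK cells, CD8 T cells, other T cells, neutrophils and the rest of the cells, per library. Gzmk UMIs came mainly from CD8 T cells (62.7 to 82.4%), Gzmc and Prf1 UMIs mainly from NK cells in the 3 libraries with at least 33 NK cells, and up to 27.7% of Gzmb UMIs from the rest.

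The wider pathway was read from 40 genes in 6 lists. None of the 33 tested in CD8 T cells passed TKO against DKO in edgeR's test, and their median change was -0.29 on the log2 scale, against 0.01 over all genes. At an unadjusted p under 0.05, 5 were higher and 3 lower, where 4.57% of all genes passed in either direction. The 3 with the smallest p were Tbx21, which encodes the T-box factor T-bet, Eomes, its relative, and Rab27a, a GTPase that docks granules. Tbx21 was at 55.8 and 66.8 CPM in TKO and 110 and 133 CPM in DKO (-1.04 ± 0.25 on the log2 scale, edgeR adjusted p = 0.763). Eomes was at 147 and 137 CPM in TKO and 78.3 and 73.1 CPM in DKO (0.89 ± 0.23, adjusted p = 0.822), and Rab27a at 110 and 93.9 CPM in TKO and 59.5 and 48.7 CPM in DKO (0.92 ± 0.25, adjusted p = 0.861). Both TKO libraries lay above both DKO libraries for Eomes and Rab27a, as for 20.1% of genes, and below both for Tbx21, as for 13.8%, which adds nothing to their choice by the smallest p.

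In other T cells 0 of 33 list genes passed (median -0.06, against -0.00087 over all genes; 2 higher and 1 lower at an unadjusted p under 0.05, where 6.1% of all genes passed), and 0.0686% of all genes passed the adjusted threshold. The smallest p belonged to Serpinb6b, a granzyme inhibitor of mouse lymphocytes (-0.49 ± 0.16, edgeR adjusted p = 0.594), Stat4, which relays interleukin 12 (0.43 ± 0.15, 0.608), and Tcf7, a factor of naive and memory T cells (0.65 ± 0.22, 0.623). In NK cells 0 of 29 passed, where 0.405% of all genes did (median 0.06, against 0.01), with the smallest p for Xcl1, a chemokine that draws dendritic cells (1.03 ± 0.32, 0.366), Zeb2 (0.96 ± 0.44, 0.931) and Tbx21 (0.65 ± 0.31, 0.933). With T and NK cells summed, 0 of 36 passed, where 0.0263% of all genes did (median -0.08, against 0.00), with Eomes (0.75 ± 0.20, 0.664), Ctsc, which activates granzymes (0.56 ± 0.21, 0.926), and Stat4 (0.39 ± 0.16, 0.967) lowest in p. For the interaction 0 of 35 passed, where 0.00985% of all genes did (median 0.01, against 0.00), with Ccl4 (-1.63 ± 0.41), Id2 (0.72 ± 0.21) and Tnf (-1.42 ± 0.41) lowest in p, each at an edgeR adjusted p of 0.635.

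Of 35 list genes tested between classes, 8 were higher and 6 lower in CD8 T than in other T cells, where 3.5% and 6.05% of all genes were; their median difference was 0.04 on the log2 scale, against 0.03 over all genes, and no list was tested as a whole. Among 10 genes of granule loading and release 4 were higher and 2 lower, with Ctsw, a cathepsin of cytotoxic cells (1.31 ± 0.16, edgeR adjusted p = 9.3e-05), and Gnptab, which tags lysosomal enzymes (1.27 ± 0.21, 0.00138), up and Stx11, a fusion protein of granule release (-1.73 ± 0.31, 0.00583), down. The transcription factors Eomes (2.86 ± 0.25) and Runx3 (1.25 ± 0.16) were higher and Id2 (-1.23 ± 0.17) lower, and the chemokine Ccl5 was higher (1.97 ± 0.40). The receptors Ifngr2 (-2.06 ± 0.34) and Fas (-1.30 ± 0.21) and the cytokine Ltb (-1.04 ± 0.18) were lower in CD8 T cells. Of the other granzymes, Gzmd, Gzme, Gzmg and Gzmn had no UMI in CD8 T cells, and Gzmf gave 73 and 1 UMIs in TKO CD8 T cells and 0 and 22 in DKO CD8 T cells, with 0 and 0 in TKO and 3 and 8 in DKO other T cells (3.26 ± 0.95, edgeR adjusted p = 0.0489).

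Against CD8 T cells, NK cells were higher in 5 and lower in 8 of the 35 list genes, where 4.41% and 5.19% of all genes were, with a median difference of 0.02 on the log2 scale, against -0.03 over all genes. Of the 4 granzyme inhibitors 3 were higher and 1 lower. Serpinb9, which blocks granzyme B, was at 505 and 721 CPM in TKO NK cells and 524 and 727 CPM in DKO NK cells, against 194 and 182 CPM in TKO CD8 T cells and 288 and 244 CPM in DKO CD8 T cells (1.49 ± 0.16, edgeR adjusted p = 2.8e-05). Serpinb6b was higher by 1.21 ± 0.24 (adjusted p = 0.00851). In DKO replicate 1 its order was the other way, at 201 CPM (18 UMIs) in NK cells against 229 CPM in CD8 T cells. Serpinb9b gave 4 and 41 UMIs in TKO and 0 and 35 in DKO NK cells and none in CD8 T cells. Rab27a (-1.25 ± 0.24) and Ctsc (-0.83 ± 0.21) were lower in NK cells and Ctsw (0.55 ± 0.16) higher. The NK values of DKO replicate 1 rest on 1 Rab27a UMI and 2 Ctsc UMIs in 5 cells, and these list results are not given without that library. Lta gave no UMI in NK cells, against 17 and 6 in TKO and 2 and 3 in DKO CD8 T cells, and Ltb (-1.43 ± 0.21), Fas (-1.30 ± 0.33), Prdm1 (-1.38 ± 0.39) and Tox (-1.22 ± 0.26) were lower in NK cells, while Id2 was higher (1.06 ± 0.17).

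Over the 12 sums of 3 classes in 4 libraries, Pearson's r of log2(CPM + 1) was computed between each of the 8 genes and 6761 others, as a description of points that share libraries and depth. Nkg7 and Fasl ran together (r = 0.956), whereas Gzmk ran apart from Gzmc (-0.57), Gzma (-0.50) and Prf1 (-0.38). Outside the 8, Gzmk was most like Wipf3 (0.943), Pik3cd (0.936) and Ms4a6b (0.924), Gzma like Fuca2 (0.903) and Tyrobp (0.887), and Gzmb like Abhd16a (0.932), Ptpn6 (0.924) and Ptpa (0.923). Gzmc was most like Hsd17b12 (0.961), Parp8 (0.934) and Btbd11 (0.931), and Prf1 like Ugcg (0.955), Ptprc (0.946) and the granzyme inhibitor Serpinb6b (0.944). Nkg7 was most like Eomes (0.967), Setbp1 (0.955) and Mctp2 (0.954), Fasl like Setbp1 (0.953) and Gimap4 (0.939), and Ifng like Phf8 (0.936), Kif2a (0.909) and Uba6 (0.908).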

How the data were processed

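The deposited values are UMI counts per gene and cell, whole numbers as deposited with no scaling visible in them; alignment used Cell Ranger 7.0.0 and STAR on mm10, per the submitters' processing notes. Per the labels' protocols, dissociated tumour cells underwent red cell lysis and Annexin V dead-cell removal, were hashtag-stained and combined into 1 load. A barcode was kept with 200 or more genes and no more than 20% mitochondrial UMIs. In each of the 3508 barcodes the library's own hashtag was the most abundant. No doublet caller was run. Cells whose UMIs of other lineages (Csf3r, Csf1r, Cd79a, Ms4a1, Epcam, Col1a1) reached those of their class were left out, and neutrophils (at least 2 Csf3r UMIs, no CD3 or NK UMIs) gave the background. Counts were summed per library and class and tested with edgeR 4.0.16 (TMM, filterByExpr, robust quasi-likelihood, Benjamini-Hochberg over all genes tested, threshold 0.05) in R 4.3.3, with group as the term, or class with library as a block. The tests were tried on simulated counts. DESeq2 1.42.0 was an alternative, beside other cell rules, size factors, no low-count filter, single libraries left out and a replicate block. SE is the log2 change over the square root of F. The genes and lists were chosen with earlier results of these data known. Named list genes were those past the threshold (up to 3 per list between classes) or the 3 with the smallest p, and up to 3 like genes were named per gene, which needed a mean of 20 CPM in a class. Some items are not reported here. Sequences are RefSeq's. The NK fit without a cell minimum, and the fits without top cells or with own hashtag at least 80%, were added after seeing the data. Intervals are exact binomial, at 95%, and cover counting error only.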

Additional observations from a re-analysis of the deposited data

Results flagged for a closer look

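The values of Fasl in TKO and DKO lay in opposite orders in a pair of cell classes. Its log2 fold change, TKO over DKO, was -0.33 in CD8 T cells, where both TKO libraries (136 and 154 CPM) lay below both DKO libraries (188 and 173 CPM), as for 13.8% of genes, and 0.13 in NK cells, where both TKO libraries (156 and 179 CPM) lay above both DKO libraries (145 and 151 CPM), as for 21.3% of genes. The changes were -0.33 ± 0.21 and 0.13 ± 0.30 (SE, 2 libraries per genotype). Neither passed edgeR's test, and the difference between the classes was not tested. The NK value of DKO replicate 1 rests on 13 Fasl UMIs in 5 cells.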

How the results depend on the processing

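Counts of genes called over the whole table moved with the processing. TKO against DKO gave 0 genes in CD8 T cells, 7 in other T cells, 27 in NK cells and 3 in T and NK cells summed; with DESeq2 these were 6, 23, 16 and 27, and with no filter on low counts 69, 194, 88 and 191. The class contrasts gave 906 (CD8 T minus other T) and 910 (NK minus CD8 T), and 1443 and 1386 with no filter; the interaction gave 1, 2 with DESeq2, 84 with no filter and 5 with at least 2 CD8 UMIs. With no exclusion by other lineages the counts were 0 in other T cells, 0 in NK cells, 15 summed, 548 and 566 for the class contrasts and 0 for the interaction, and NK cells with 0 CD3 UMIs gave 16. Leaving out 1 library gave 6 to 54 in CD8 T, 14 to 74 in other T, 6 to 110 in NK, 0 to 61 summed, 464 to 865 and 489 to 932 for the class contrasts and 9 to 71 for the interaction. The causes were not tested.

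Replicate numbers are shared by TKO and DKO, but no label pairs them; the deviations of same-numbered libraries correlated at 0.244 (CD8 T), 0.0626 (other T), -0.0111 (NK) and 0.0308 (summed), over 2 pairs. With a replicate block the counts were 107 in CD8 T, 53 in other T, 88 in NK and 0 summed, and the log2 changes that turned sign were Gzma -1.20 and Gzmc 0.056 in CD8 T and Gzmb 0.093 and Ifng 0.0020 summed.

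Other log2 changes that turned sign, for TKO against DKO unless a class contrast is named, were as follows, and the cause was not tested. Without the top cells they were Gzma -2.01 and Gzmc 0.91 in CD8 T, Gzma 0.21 and Ifng 0.63 in other T, Gzmc -0.42 in NK, Gzmc -0.14 and Ifng 0.57 summed, Gzma -0.16 for CD8 T minus other T and Fasl -0.12 for NK minus CD8 T. With no exclusion by other lineages they were Gzmc 0.11 in CD8 T, Ifng 0.26 in other T, Gzmb 0.45 and Ifng 0.37 summed, Gzmb -0.072, Nkg7 -0.041 and Fasl -0.21 for NK minus CD8 T, and Gzmc -0.80 for the interaction. With at least 2 CD8 UMIs they were Nkg7 -0.16 and Ifng -0.11 in CD8 T, Nkg7 -0.019 and Fasl -0.064 for NK minus CD8 T, and Prf1 -0.052 for the interaction. Fasl in other T was -0.0011 with DESeq2 size factors and -0.0075 with DESeq2. NK cells with 0 CD3 UMIs gave Gzmb -0.45 and Gzmc -0.33 in NK and Fasl -0.032 for NK minus CD8 T, which was -0.025 with no filter.

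Leaving out 1 library also turned signs. In CD8 T the ranges were Gzma -5.13 to 1.44, Gzmb -1.42 to 0.83, Gzmc -0.82 to 2.33, Nkg7 -0.18 to 0.37 and Ifng -0.52 to 0.57. In other T they were Gzma -1.11 to 0.82, Gzmb -0.27 to 0.53, Gzmc -1.59 to 2.43, Ifng -1.52 to 2.21 and Fasl -0.27 to 0.24. In NK they were Gzmb -0.36 to 5.08 and Gzmc -0.37 to 5.71, and summed they were Gzmb -0.51 to 0.74, Gzmc -0.54 to 4.25, Ifng -0.80 to 0.91 and Fasl -0.0015 to 0.11. For CD8 T minus other T they were Gzma -0.083 to 1.23, Gzmc -0.12 to 0.90 and Ifng -0.12 to 0.81, and for NK minus CD8 T Gzmb -0.010 to 0.42, Ifng -0.029 to 0.84 and Fasl -0.078 to 0.12. For the interaction they were Gzma -5.17 to 1.75, Gzmb -1.94 to 0.99, Gzmc -1.12 to 1.48, Prf1 -0.23 to 0.25, Nkg7 -0.86 to 0.14 and Ifng -1.96 to 1.61. Gzmk and Prf1 kept a positive change in CD8 T, other T and summed cells under each alternative run.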
